A study of Homo sapiens with 9 samples.

Results

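The 34 genes described here encode the SR proteins SRSF1 to SRSF12, the SR-like activators TRA2A and TRA2B, the CLK, SRPK and PRPF4B kinases, the LUC7-like proteins, and a group of SR-related and RBM splicing factors. They were taken by gene symbol from the 58735 genes of the deposited table, and all 34 were found. The genes were measured by poly-A RNA-seq in KHM-5M, an established human thyroid cancer cell line that carries mutations in BRAF and in the TERT promoter. The 3 groups of 3 samples were KHM-5M cells given DMSO, the solvent control, and the same cells given 0.3 μM or 1 μM of YK-4-279, a small-molecule inhibitor of ETS transcription factors, each for 24 h. All groups are the same single line, so the values describe 1 cell line at 1 time point. The labels give 3 samples per group, whereas the methods speak of 2 biological replicates per condition, and which is right was not settled here. Nothing in the labels says that the 3 samples of a group were separate cultures, and p-values then measure only the spread between these samples.

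SR proteins bind exonic sequences through RNA recognition motifs and recruit the spliceosome through domains rich in arginine and serine (RS domains). SRPK kinases phosphorylate these domains in the cytoplasm before nuclear import, and CLK kinases phosphorylate them in the nucleus, which releases the proteins from nuclear speckles. LUC7-like proteins are human relatives of a yeast U1 snRNP subunit and help to choose the donor splice site. Many genes of these families are known to control their own mRNA through retained introns and poison exons, so that a large share of their transcripts can stay in the nucleus or be degraded.

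The libraries held 16903251 to 18238884 counts each, and 3 counts corresponded to 0.164 to 0.177 counts scaled to a common library size (CPM). Replicates of a group differed by more than counting noise in all 9 pairs. Of the thyroid lineage factors, PAX8 was present at 2742 to 3660 counts, while NKX2-1 had 0 to 10 and FOXE1 7 to 34. The epithelial keratin KRT8 was at 22002 to 24344 counts and the epithelial cadherin CDH1 at 0 to 5, whereas thyroglobulin (TG), which defines differentiated thyrocytes, had at most 4 counts. Of the leukocyte genes, PTPRC and CD3E had at most 1 count in any library. CD14, a monocyte gene, had 8 to 21 counts in DMSO and at 0.3 μM and 30 to 37 at 1 μM, and its part in the results was not tested. Of the fibroblast genes, COL1A1 was at 5579 to 9593 counts, while COL1A2 had 0 to 10 and DCN 1 to 8. Of the endothelial genes, VWF had 36 to 77 counts, PECAM1 0 to 6 and CDH5 0 to 2. The origin of the COL1A1 counts was not tested. In these bulk counts, a lower level in every cell and a smaller share of cells that hold the RNA cannot be told apart.

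The promoters of the members are of interest because YK-4-279 was developed against ETS factors, whose core site contains GGAA. The motif CCGGAAG, with its reverse complement CTTCCGG, was searched on both strands from 250 bases before to 50 bases after the start site (RefSeq, GRCh38.p14). A promoter was matched for 30 of the 34 genes, and the other four were RBM39, PRPF4B, SRSF2 and TRA2A. The letters were present in 5 of these 30 promoters (16.7%), compared with 10.7% of all 27305 promoters and 19.1% of the 10213 promoters of protein-coding genes tested. Of the members that were lower at 1 μM than in DMSO, PNISR, SRSF5 and SREK1 held the motif, starting 26, 57 and 106 bases before the start site, respectively. The other members with a match were SRSF4, at 241 bases, and LUC7L2, at 170 bases before the start, and neither passed the test at 1 μM. The promoters of the first 3 genes and that of SRSF1, the member with the largest increase, which has no match, are shown 5′ to 3′ on the strand of the gene with the motif in capitals. They lie at chr6:99425259-99425558 on the minus strand (PNISR), chr14:69766892-69767191 on the plus strand (SRSF5), chr5:66144050-66144349 on the plus strand (SREK1) and chr17:58007197-58007496 on the minus strand (SRSF1).
PNISR: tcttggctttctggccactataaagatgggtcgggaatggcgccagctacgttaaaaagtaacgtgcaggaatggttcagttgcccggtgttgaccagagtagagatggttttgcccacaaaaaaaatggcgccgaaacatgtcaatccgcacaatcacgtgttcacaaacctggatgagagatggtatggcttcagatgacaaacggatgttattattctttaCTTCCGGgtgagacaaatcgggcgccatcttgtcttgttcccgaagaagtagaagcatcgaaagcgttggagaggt
SRSF5: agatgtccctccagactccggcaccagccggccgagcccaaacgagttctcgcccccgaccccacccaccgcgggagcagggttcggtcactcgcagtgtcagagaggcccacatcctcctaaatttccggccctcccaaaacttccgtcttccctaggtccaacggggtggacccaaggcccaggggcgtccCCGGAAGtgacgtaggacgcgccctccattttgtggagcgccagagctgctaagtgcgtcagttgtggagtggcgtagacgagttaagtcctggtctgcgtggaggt
SREK1: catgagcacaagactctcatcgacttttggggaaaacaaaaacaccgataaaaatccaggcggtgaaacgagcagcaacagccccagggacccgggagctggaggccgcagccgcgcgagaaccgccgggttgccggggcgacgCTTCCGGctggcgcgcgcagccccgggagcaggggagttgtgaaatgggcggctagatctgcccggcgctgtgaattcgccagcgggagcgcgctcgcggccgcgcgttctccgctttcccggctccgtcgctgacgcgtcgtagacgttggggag
SRSF1: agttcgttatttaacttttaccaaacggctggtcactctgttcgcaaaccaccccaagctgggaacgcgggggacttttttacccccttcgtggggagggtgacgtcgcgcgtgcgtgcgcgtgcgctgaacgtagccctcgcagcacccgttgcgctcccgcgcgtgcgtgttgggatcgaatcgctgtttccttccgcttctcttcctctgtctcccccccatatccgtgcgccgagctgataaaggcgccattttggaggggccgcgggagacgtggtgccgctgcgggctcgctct
The share of promoters with the motif was 19.4% among the protein-coding genes that were lower at 1 μM, 18.4% among those that were higher and 19.1% among those that did not pass. For the members, the counts were 3 of 15, 0 of 3 and 2 of 11, respectively. A match is a description of the letters and does not show a bound site.

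In DMSO, these splicing genes were among the more abundant mRNAs of KHM-5M cells. Their median FPKM (fragments scaled to gene length and library size) was 17.8, compared with 5.5 for the 12870 protein-coding genes with a mean of at least 10 counts, and 29 of the 34 were above that median. SRRM2, a scaffold of nuclear speckles, had the highest level at 54.5 ± 2.97 FPKM (SD, n = 3). It was followed by the SR protein SRSF9 at 43.2 ± 2.97, the transcriptional coactivator and splicing factor ARGLU1 at 41.9 ± 3.49, SRSF5 at 39.8 ± 1.5 and CLK1 at 34.5 ± 3.13 FPKM. At the lower end were CLK4 at 4.57 ± 0.251 FPKM, CLK3 at 4.43 ± 0.147 and RNPC3 at 3.56 ± 0.370. The order by FPKM depends on the length assigned to each gene, which was 20443 bases for CLK3 and 7924 for CLK4. Without scaling to length CLK3 was the higher of these, with a mean of 92.0 CPM in DMSO against 36.8 for CLK4. SRSF12 was close to absent, with 0 to 3 counts in every library, and was not tested. When the genes were ordered by level, neighbours differed without overlap of their samples in 10 of 33 pairs, among them SRRM2 over SRSF9, SRSF5 over CLK1 and CLK3 over RNPC3. The other 23 neighbours overlapped.

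The first comparison asked how the 34 genes differed after 24 h at the higher dose. At 1 μM, 18 of the 33 members tested were lower than in DMSO and 3 were higher at an adjusted p under 0.05 (edgeR quasi-likelihood test, Benjamini-Hochberg adjustment over 15617 genes). The share of members that fell was 54.5%, compared with 9.95% of all genes tested, and the share that rose was 9.09%, close to the 7.67% of all genes. The largest decreases were in RNPC3, PNISR, LUC7L, LUC7L3, ARGLU1 and CLK1, which were at 0.502-fold to 0.662-fold of the DMSO level, and the largest increase was in SRSF1, at 1.42-fold. LUC7L, LUC7L3, PNISR and RNPC3 were chosen by the study for display from these same samples and are not independent evidence of the direction. The 34 genes were themselves chosen with earlier results of these data known, so their shares are not an independent test. The median log2 fold change was -0.21 for the members and -0.01 for all genes tested. In 19 members all samples at 1 μM lay below all DMSO samples and in 5 they all lay above, where 16.3% and 21.1% of all genes did so. With a cutoff of 1.5-fold and among the 12900 protein-coding genes tested, 6 members were lower and 0 higher, against a background of 2.35% and 1.56%. By role, all 4 members of the RBM and minor spliceosome group fell, as did 5 of 6 SR-related genes, 3 of 4 CLK kinases (CLK3 among them, a call lost in 11 of 13 alternative settings) and 2 of 3 LUC7-like genes. In the TRA2 pair 1 of 2 fell, and of the SRPK and PRPF4B kinases 1 of 3. Of the 11 SR proteins tested, 2 fell and 2 rose, and of the SR-related genes 1 rose.

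**Figure D1:**
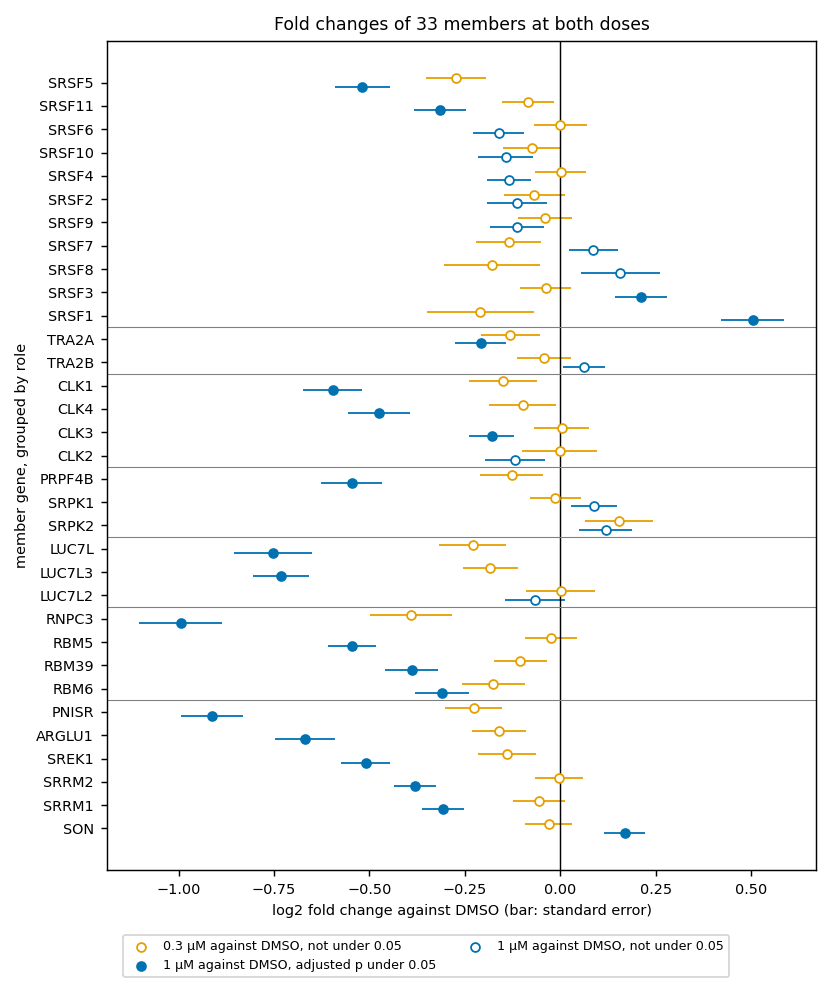
Log2 fold change against DMSO (x axis, bars are the standard error) of the 33 members tested (y axis, grouped by role) at 0.3 μM (orange) and 1 μM (blue), with filled points for an adjusted p under 0.05. At 1 μM 18 filled points lie left of 0 and 3 lie right of it, and no point at 0.3 μM is filled.

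Among the SR proteins, the RNA-binding regulators with which the family is defined, 2 fell, 2 rose and 7 did not pass. SRSF1 (chromosome 17, 58003360 to 58007346 in GRCh38) is the founding SR protein and a proto-oncogene that promotes exon inclusion. Its level was 10.2, 12 and 10.4 FPKM in DMSO, 9.70, 11.6 and 6.83 at 0.3 μM, and 16.7, 14.5 and 15.4 at 1 μM. Every sample at 1 μM was above every other sample, and the third sample at 0.3 μM stood below the rest. The log2 fold change at 1 μM was 0.50 ± 0.08 (SE, edgeR quasi-likelihood test, Benjamini-Hochberg adjusted p = 0.00105). SRSF3, the smallest family member and an mRNA export adaptor, was also higher at 1 μM, by 0.21 ± 0.07 (adjusted p = 0.0447, same test), but this call was lost in 5 of 13 alternative settings.

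SRSF5 went the other way from SRSF1. This SR protein (chromosome 14, 69726900 to 69772005) was at 38, 40.7 and 40.5 FPKM in DMSO, at 35.4, 34.5 and 28.9 at 0.3 μM and at 31.4, 25.3 and 27.5 at 1 μM. All 6 treated samples were below the 3 DMSO samples. At 1 μM the log2 fold change was -0.52 ± 0.07 (adjusted p = 0.000304, edgeR with Benjamini-Hochberg adjustment). SRSF11, an SR-related protein that contacts U2AF, had a smaller decrease of -0.32 ± 0.07 (adjusted p = 0.00625, same test). The 7 SR genes that did not pass had log2 fold changes from -0.16 for SRSF6 to 0.16 for SRSF8. SRSF7 had the smallest value of the family, 0.09 ± 0.06, with 22.2, 24.5 and 21.8 FPKM in DMSO, 22.5, 21.6 and 18.3 at 0.3 μM and 24.9, 25.0 and 23.6 at 1 μM. SRSF8 arose as a retrocopy of SRSF2, and whether the 2 genes share reads in these counts was not tested, so their separate values are uncertain. The SR-like activators were close to this pattern: TRA2A was lower by -0.21 ± 0.07 (adjusted p = 0.0449, edgeR with Benjamini-Hochberg adjustment), a call lost in 11 of 13 alternative settings, and TRA2B did not pass at 0.06 ± 0.06. TRA2B was at 12.9, 13.5 and 12.9 FPKM in DMSO, 13.0, 13.4 and 11.8 at 0.3 μM and 14.3, 13.5 and 13.7 at 1 μM. The groups lay within a narrow band. Every sample at 1 μM was still above every other sample, with a lowest value of 13.520 FPKM against a highest of 13.515 in DMSO.

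Of the CLK kinases, which phosphorylate SR proteins in the nucleus, CLK1, CLK4 and CLK3 fell at 1 μM and CLK2 did not pass. CLK1 (chromosome 2, 200853009 to 200864744) was at 30.9, 36.8 and 35.6 FPKM in DMSO, at 26.9, 31.8 and 34.6 at 0.3 μM and at 24.8, 20.7 and 23.7 at 1 μM. The 0.3 μM samples overlapped the DMSO samples, and the 1 μM samples were below all others. Its log2 fold change at 1 μM was -0.60 ± 0.08 (adjusted p = 0.000195, edgeR with Benjamini-Hochberg adjustment). CLK4 (chromosome 5, 178602664 to 178630615) was less abundant, at 4.31, 4.81 and 4.58 FPKM in DMSO, 4.19, 4.11 and 4.52 at 0.3 μM and 3.55, 3.24 and 3.18 at 1 μM. Again only the 1 μM samples were below all DMSO samples without overlap, with a log2 fold change of -0.47 ± 0.08 (adjusted p = 0.00133, same test). CLK3 passed with a small decrease, -0.18 ± 0.06 (adjusted p = 0.047, same test), which was lost in 11 of 13 alternative settings. CLK2 did not pass, at -0.12 ± 0.08, and its groups overlapped, with 9.93, 9.98 and 10.9 FPKM in DMSO, 11.5, 10.2 and 9.03 at 0.3 μM and 9.41, 9 and 10.3 at 1 μM.

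PRPF4B, a kinase associated with the U4/U6.U5 tri-snRNP (chromosome 6, 4021267 to 4064983), was at 16.3, 19.7 and 16.5 FPKM in DMSO, at 14.9, 16.7 and 16.5 at 0.3 μM and at 13, 11 and 12.3 at 1 μM. The 1 μM samples were below all others, with a log2 fold change of -0.55 ± 0.08 (adjusted p = 0.000468, edgeR with Benjamini-Hochberg adjustment). The cytoplasmic SR kinases SRPK1 and SRPK2 did not pass and had positive values of 0.09 ± 0.06 and 0.12 ± 0.07. SRPK1 was at 24.6, 27.1 and 25.8 FPKM in DMSO, 25.0, 26.5 and 25.4 at 0.3 μM and 28.9, 26.1 and 28.3 at 1 μM, with overlap of all groups.

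LUC7L and LUC7L3 were lower at 1 μM, and their paralog LUC7L2 did not pass. LUC7L (chromosome 16, 188969 to 229463) was at 5.34, 5.57 and 5.59 FPKM in DMSO, 4.79, 4.48 and 4.82 at 0.3 μM and 3.84, 2.82 and 3.23 at 1 μM. The 3 groups did not overlap and were ordered by dose. The log2 fold change at 1 μM was -0.75 ± 0.10 (adjusted p = 0.000254, edgeR with Benjamini-Hochberg adjustment). LUC7L3 (chromosome 17, 50719544 to 50756213), the more abundant of the pair per length, was at 20.8, 22.9 and 22.6 FPKM in DMSO, 19.5, 20.8 and 18.2 at 0.3 μM and 15.1, 12.2 and 13.0 at 1 μM. The 1 μM samples were again below all others, with a log2 fold change of -0.73 ± 0.07 (adjusted p = 2.97e-05, same test). LUC7L2 had 7.89, 7.36 and 7.86 FPKM in DMSO, 6.80, 8.56 and 7.81 at 0.3 μM and 7.44, 8.14 and 6.76 at 1 μM, and its log2 fold change was -0.07 ± 0.08 (adjusted p = 0.613, same test). Whether LUC7L2 differed from its paralogs in response was not tested.

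**Figure D2:**
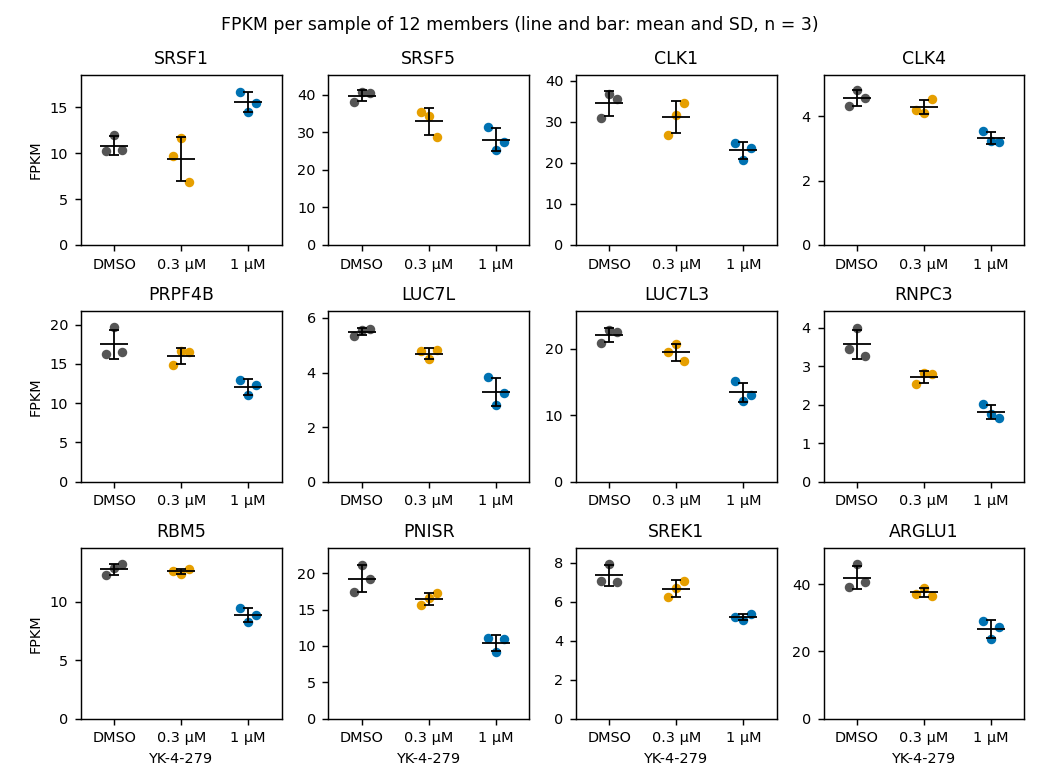
FPKM (y axis, from 0) of 12 members in each sample of the DMSO, 0.3 μM and 1 μM groups (x axis). Points are samples, and the line and bar are the mean and SD (n = 3). In SRSF1 the 1 μM samples lie above all others, and in the other 11 genes they lie below all DMSO samples.

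All 4 genes of the RBM and minor spliceosome group fell at 1 μM. RNPC3 (chromosome 1, 103525691 to 103555239) encodes the U11/U12-65K protein, which links the U11 and U12 snRNPs of the minor spliceosome, and had the largest decrease of the 33 members. It was at 3.45, 3.97 and 3.26 FPKM in DMSO, 2.53, 2.82 and 2.80 at 0.3 μM and 2.02, 1.75 and 1.65 at 1 μM. The groups did not overlap and were ordered by dose, and the log2 fold change at 1 μM was -0.99 ± 0.11 (adjusted p = 5.35e-05, edgeR with Benjamini-Hochberg adjustment). RNPC3 overlaps AMY2B on the same strand, a gene with a mean of 18 counts. RBM5, a regulator of exon choice in apoptosis genes (chromosome 3, 50088908 to 50119021), was at 12.3, 12.9 and 13.2 FPKM in DMSO, 12.6, 12.4 and 12.8 at 0.3 μM and 9.46, 8.26 and 8.87 at 1 μM. The 0.3 μM samples lay within the DMSO range for RBM5, whereas the 1 μM samples were below both groups, with a log2 fold change of -0.55 ± 0.06 (adjusted p = 8.2e-05, same test).

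RBM39, a U2AF-related factor, fell by 0.39 on the log2 scale (SE 0.07, adjusted p = 0.00182, edgeR with Benjamini-Hochberg adjustment). RBM6, the neighbour of RBM5 on chromosome 3, had the smallest decrease of the group at -0.31 ± 0.07 (adjusted p = 0.00862, same test). RBM6 was at 9.19, 10.02 and 8.98 FPKM in DMSO, 8.76, 8.66 and 7.57 at 0.3 μM and 8.23, 7.22 and 7.56 at 1 μM, with all treated samples below the DMSO samples. RBM5 and RBM6 overlap on the same strand, so counts between them are uncertain.

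Among the SR-related genes, PNISR, ARGLU1, SREK1, SRRM2 and SRRM1 fell, and SON rose. PNISR, a nuclear speckle protein with an RS domain (chromosome 6, 99398051 to 99425331), was at 17.5, 21.1 and 19.2 FPKM in DMSO, 15.6, 16.6 and 17.2 at 0.3 μM and 11, 9.1 and 11 at 1 μM. The groups did not overlap, and the log2 fold change at 1 μM was -0.91 ± 0.08 (adjusted p = 1.44e-05, edgeR with Benjamini-Hochberg adjustment). ARGLU1 (chromosome 13, 106541673 to 106568164) was at 39.2, 45.8 and 40.6 FPKM in DMSO, 37.1, 39.0 and 36.5 at 0.3 μM and 29.1, 23.6 and 27.2 at 1 μM. Its groups were again ordered by dose without overlap, and the log2 fold change was -0.67 ± 0.08 for the higher dose (adjusted p = 8.56e-05, same test). SREK1, a splicing regulator that binds other SR proteins (chromosome 5, 66139971 to 66183615), was at 7.05, 7.95 and 7.01 FPKM in DMSO, 6.24, 6.68 and 7.08 at 0.3 μM and 5.21, 5.07 and 5.36 at 1 μM. The 0.3 μM samples overlapped the DMSO samples and the 1 μM samples were below both, with a log2 fold change of -0.51 ± 0.06 (adjusted p = 0.000159, same test).

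The speckle scaffolds split. SRRM2 fell by 0.38 (SE 0.06) and SRRM1 by 0.31 (SE 0.06) on the log2 scale, with adjusted p of 0.000468 and 0.00197 (edgeR with Benjamini-Hochberg adjustment). SON, which organizes the speckle together with SRRM2, was at 27.6, 26.2 and 28.5 FPKM in DMSO, 27.2, 27.6 and 25.9 at 0.3 μM and 31.4, 30.5 and 31.7 at 1 μM. The 1 μM samples of SON were above all others, and the log2 fold change was 0.17 ± 0.05 (adjusted p = 0.0418, same test). The SON call was lost in 7 of 13 alternative settings, whereas 17 of the 21 calls at 1 μM were kept in all 13. These settings do not include the 1.5-fold cutoff, under which 6 of the 21 remained.

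**Figure D3:**
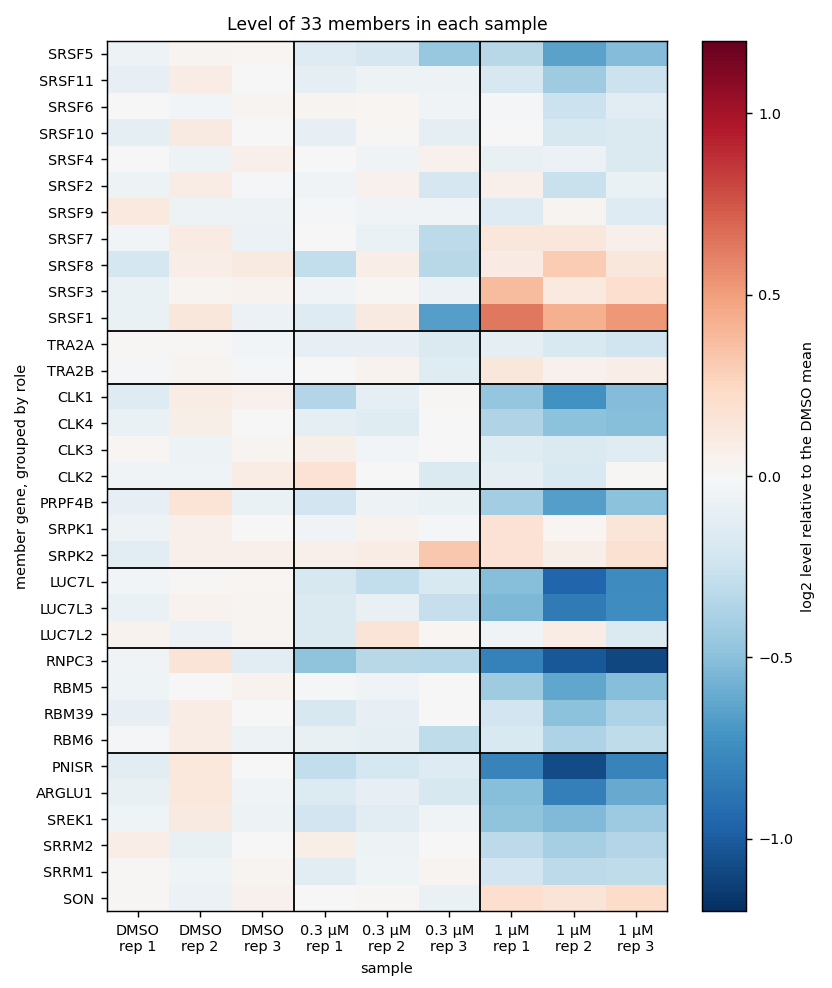
Log2 level of the 33 members tested (rows, grouped by role) in each of the 9 samples (columns), relative to the mean of the DMSO samples. Blue marks lower and red higher levels. The 1 μM columns are blue for most members and red in all 3 samples for 8 of them, SRSF1, SRSF3 and SON, which passed the test, and SRSF7, SRSF8, TRA2B, SRPK1 and SRPK2, which did not.

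The second comparison asked how the genes differed at the lower dose. At 0.3 μM no member passed in either direction, and this was 0% of all 15762 genes tested as well (edgeR with Benjamini-Hochberg adjustment, adjusted p of the members from 0.995 to 1.0). DESeq2 likewise called 0 members. At an unadjusted p under 0.05, 7 members were lower (21.2%) and 0 higher, compared with 2.13% and 1.64% of all genes tested. These 7 were RNPC3, SRSF5, LUC7L, PNISR, LUC7L3, RBM6 and ARGLU1, with log2 fold changes from -0.39 for RNPC3 to -0.16 for ARGLU1. In 8 members, these 7 and TRA2A, all samples at 0.3 μM were below all DMSO samples, and in 0 they were all above (4.23% and 4.24% of all genes). The fold change was negative in 29 of the 33 members, compared with 49.7% of all genes tested. The median was -0.08 for the members and 0.00 for all genes tested. For SRSF1 the log2 fold change at 0.3 μM was -0.21 ± 0.14, and this ranged from -0.39 to -0.02 over the alternatives. It was -0.02 without the third sample at 0.3 μM.

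The third comparison set the doses against each other. At 1 μM, 14 members were lower than at 0.3 μM and 3 were higher, or 42.4% and 9.09% of those tested, compared with 6.75% and 5.85% of all 15583 genes tested (edgeR with Benjamini-Hochberg adjustment). The genes with the largest decreases were PNISR at -0.67 (adjusted p = 3.94e-05), RNPC3 at -0.59 (adjusted p = 0.00237) and LUC7L3 at -0.54 on the log2 scale (adjusted p = 0.000354, same test). SRSF1 was higher at 1 μM by 0.72 ± 0.13 (adjusted p = 0.00178, same test), SRSF3 by 0.26 and SON by 0.21. Of the 18 members that were lower at 1 μM than in DMSO, 4 did not pass between the doses, namely SRSF5, CLK3, RBM6 and TRA2A. For SRSF5 the difference between doses was -0.23 (adjusted p = 0.0769, same test), after -0.27 between 0.3 μM and DMSO. RBM5 had the opposite split, with -0.51 between doses (adjusted p = 0.000146, same test) and -0.02 between 0.3 μM and DMSO.

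The comparisons share the DMSO samples, so the values for both doses are given side by side only. The 18 genes that fell at 1 μM had a median log2 fold change of -0.51 at 1 μM and -0.14 at 0.3 μM. The value at 0.3 μM was negative for 17 of these 18 genes, as it was for 29 of all 33 members. The 3 genes that rose at 1 μM all had negative values at 0.3 μM, and none of them passed there. The values were -0.21 ± 0.14 for SRSF1, -0.04 ± 0.07 for SRSF3 and -0.03 ± 0.06 for SON, the last 2 smaller than their SE. Relative to the DMSO mean, the median of all 33 members was between -0.05 and 0.06 in the DMSO samples, between -0.10 and -0.05 at 0.3 μM and between -0.27 and -0.15 at 1 μM. The first sample at 1 μM was the least changed and the second the most.

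The members share features that were not used to choose the values above, although the list was drawn up as one rich in retained introns. In the GENCODE annotation (version 44, GRCh38), 31 of the 34 genes had at least 1 retained-intron transcript model. This compared with 59.9% of 12837 other protein-coding genes with a mean of at least 10 counts. A model subject to nonsense-mediated decay was present in 32 of the 34, compared with 46.7%. The other genes are less abundant in the median than the members. They also have fewer annotated transcripts, with a median of 8 against 13.5, and the part of this in the shares was not tested. SRSF6, SRSF8 and CLK2 had no retained-intron model, and none of the 3 passed at 1 μM. RBM5 and RBM39 had the most, with 16 each. The median number of retained-intron models was 6 in the 18 genes that fell, 4 in the 3 that rose and 2.5 in the 12 that did not pass. Over all protein-coding genes tested, 14.0% of the 3958 with 3 or more such models were lower at 1 μM, compared with 8.44% of the 3766 with 1 to 2 and 5.55% of the 5176 with none. The shares that were higher at 1 μM were 7.23%, 8.31% and 11.2% in the same order. The members with 3 or more models were lower in 14 of 22 cases, those with 1 to 2 in 4 of 8 and those with none in 0 of 3. The files hold 1 count per gene, and therefore do not show whether an intron was retained. GC content and length also moved with the calls, with a median GC of 43.2% in the genes that fell and 45.4% in those that did not pass, and a median length of 8038 and 5455 bases. With the GC correction all 18 decreases passed, and with the length correction 17 did, without CLK3.

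Other splicing genes were compared by lists written for this purpose. The lists were written with earlier results of these data known, so their shares are not an independent comparison. Of 142 genes tested in 10 lists, 25 were lower (17.6%, compared with 9.95% of all genes tested) and 7 higher (4.93%, compared with 7.67%) at 1 μM, with a median log2 fold change of -0.05. Leaving out the third sample at 1 μM gave 14 lower and 3 higher, and leaving out the second gave 15 and 2. Without the third DMSO sample 2 were higher, and without the second 11 were. The U1 snRNP and its associated factors had 7 lower of 10 tested and a median of -0.35. RBM25, a U1-associated factor that regulates apoptotic splice choice, had counts of 4683 to 5749 with DMSO, of 4404 to 4831 with 0.3 μM and of 3108 to 3887 with 1 μM, or a log2 fold change of -0.58 ± 0.07 (adjusted p = 0.000145, edgeR with Benjamini-Hochberg adjustment). Among 27 other genes with RS domains, 8 were lower and 1 higher, and the cyclophilin NKTR had counts of 3334 to 3921 with DMSO and of 1714 to 2120 with 1 μM (-0.93 ± 0.07, adjusted p = 6.33e-06, same test). The gene that passed upwards in that list was BCLAF1, at 0.21 (adjusted p = 0.0436, same test).

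At 1 μM against DMSO, few of the Sm, U2 snRNP and tri-snRNP genes passed, in contrast to 7 of 10 in the U1 list. By edgeR, 0 of the 8 Sm protein genes passed (1 at an unadjusted p under 0.05), 0 of 16 U2 snRNP genes were lower and 1 higher (SF3B4, 0.26), and among 15 tri-snRNP genes 1 was lower (PRPF3, -0.30) and 1 higher (PRPF6, 0.21). Among 28 hnRNP genes, 3 were lower and 2 higher, led by HNRNPDL at -0.69 ± 0.08 (adjusted p = 5.8e-05, edgeR with Benjamini-Hochberg adjustment) and SYNCRIP at 0.35 ± 0.06 (adjusted p = 0.00116, same test). HNRNPDL, which is known to control its own mRNA by alternative splicing, had counts of 5032 to 6442 with DMSO and of 3220 to 4002 with 1 μM. Of 11 further minor spliceosome genes, 2 were lower, with CCDC84 (CENATAC) at -0.73 ± 0.14. The exon junction complex had 3 lower of 9, with the RS-domain protein PNN at -0.28. Nonsense-mediated decay genes had 1 lower (SMG9, -0.27) and 1 higher (SMG8, 0.33) of 10, and of 8 DYRK and HIPK kinases, which are related to the CLK kinases, 1 was higher (HIPK2, 0.34). At 0.3 μM, 0 of the list genes passed by edgeR with Benjamini-Hochberg adjustment, and 14 of 142 had an unadjusted p under 0.05 in either direction. Of all genes tested, 2.13% were lower and 1.64% higher at that threshold. Between the doses, 15 list genes were lower (10.6%, compared with 6.75% of all genes tested) and 10 higher (7.04%, compared with 5.85%) at 1 μM. In that comparison 3 of 10 genes of the U1 list were lower, and of 16 U2 snRNP genes 2 were lower and 2 higher. Of 15 tri-snRNP genes 1 was lower and 1 higher, and 0 of 8 Sm protein genes passed.

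**Figure D4:**
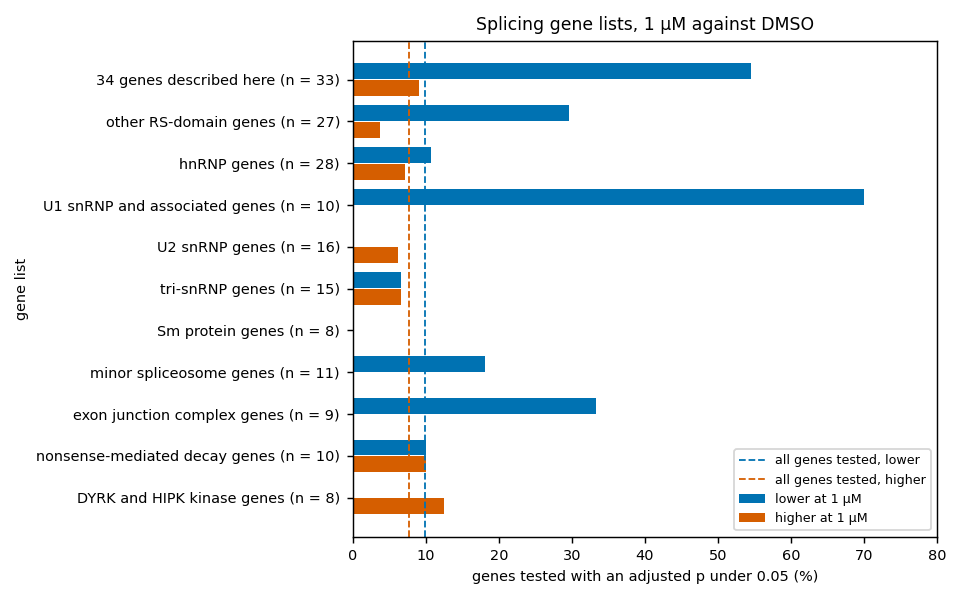
Share of the genes tested in each list that were lower (blue) or higher (orange) at 1 μM than in DMSO at an adjusted p under 0.05 (x axis, percent, from 0). Dashed lines are the shares over all genes tested, 9.95% lower and 7.67% higher, and n is the number of genes tested. The 34 genes described here reach 54.5% lower, with 33 tested.

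MALAT1, NEAT1 and KCNQ1OT1, RNAs that stay in the nucleus, were also lower at 1 μM, and several non-coding classes took smaller shares of the counts. These 3 RNAs were picked by name, and no wider set of nuclear RNAs was tested. Of all genes tested, 9.95% were lower at 1 μM. MALAT1, a long RNA of nuclear speckles, was at 227 to 307 CPM in DMSO, 212 to 248 at 0.3 μM and 111 to 146 at 1 μM, a log2 fold change at 1 μM of -0.96 ± 0.11 (adjusted p = 5.35e-05, edgeR with Benjamini-Hochberg adjustment). NEAT1, the scaffold RNA of paraspeckles, was at 242 to 329, 196 to 233 and 84.3 to 151 CPM (-1.08 ± 0.16, adjusted p = 0.000601, same test). KCNQ1OT1, an antisense RNA that stays on chromatin, was at 88.8 to 110, 91.0 to 105 and 62.0 to 65.7 CPM (-0.59 ± 0.08, adjusted p = 0.000204, same test). For all 3 RNAs the 1 μM samples were below all other samples. Genes annotated as sense-intronic took 0.0337% to 0.0350% of the counts in DMSO, 0.0312% to 0.0335% at 0.3 μM and 0.0219% to 0.0266% at 1 μM. Other non-coding classes also took smaller shares at 1 μM than in DMSO, without overlap. These were lincRNA (0.3627% to 0.3985% in DMSO, 0.2986% to 0.3245% at 1 μM) and antisense genes (0.275% to 0.2934%, 0.2138% to 0.232%). The same held for processed transcripts (0.1878% to 0.1998%, 0.1567% to 0.17%) and the annotation class TEC (0.0376% to 0.0398%, 0.0261% to 0.0295%). Protein-coding genes took a larger share, at 97.56% to 97.63% in DMSO and 97.79% to 97.99% at 1 μM. The shares are parts of a whole, so they do not move independently. The share of mitochondrial transcripts overlapped between the groups, at 2.84% to 3.34%, 3.19% to 3.39% and 3.01% to 3.44%. How far the level of nuclear RNA in the libraries plays a part in the decreases of the members was not tested.

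**Figure D5:**
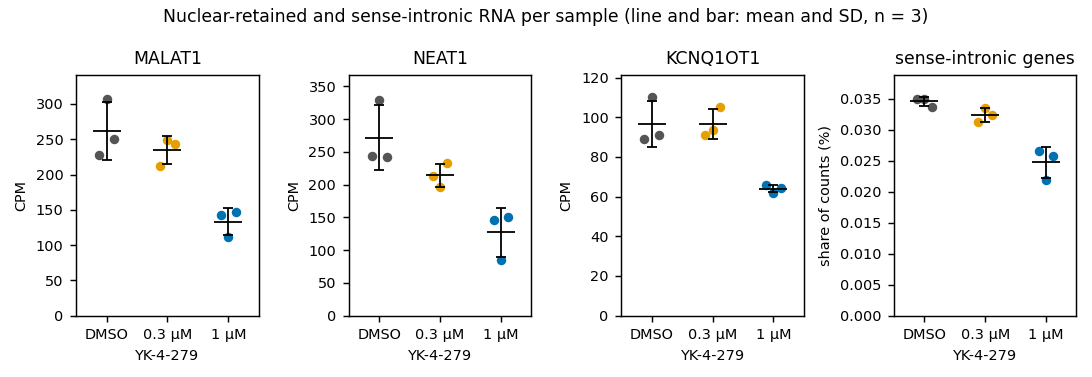
CPM of MALAT1, NEAT1 and KCNQ1OT1 and share of counts from sense-intronic genes in percent (y axes, from 0) in the samples of each group (x axis). Points are samples, and the line and bar are the mean and SD (n = 3). In every panel the 1 μM samples are below all DMSO samples.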

How the data were processed

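RNA-seq of KHM-5M cells was analysed in 9 samples, 3 each of DMSO, 0.3 μM and 1 μM YK-4-279. The authors aligned reads to GRCh38, and the submitters' processing notes name HISAT2 2.0.5, featureCounts 1.5.0-p3 and DESeq2 1.20.0, whereas the study's methods name HTseq for counting. Whether counting used the strand is not given in the sources used here, so for the 11 members that overlap an antisense gene the 2 cannot be told apart. The authors deposited whole-number counts per gene, without normalization, and FPKM values, which are counts divided by gene length and library size. The deposited fold changes and p-values of the authors' own comparisons were not used.

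From the counts, low genes were removed with filterByExpr (minimum count 10, within the groups compared), and the rest were normalized by TMM and tested with the quasi-likelihood test of edgeR 4.0.16 (R 4.3.3) in 3 pairwise comparisons. P-values were adjusted by Benjamini-Hochberg over all genes tested, and the threshold was 0.05. A permutation test of 3 against 3 samples cannot give a p below 0.1. The alternatives were DESeq2 1.42.0, other normalizations and filters, GC and length corrections, a replicate block, a 1.5-fold cutoff and leaving out single samples. The GC and length corrections were lowess trends given to edgeR as offsets. Error ranges are SD of FPKM or SE of log2 fold changes. Full statistics were given for members with an absolute log2 fold change of at least 0.4 among those past the threshold, and per-sample values also for the member of each role with the smallest change. From each other splicing list, the gene with the lowest adjusted p in each direction was named. The steps were tested on simulated counts. The members and lists were chosen with earlier results of these data known. Summaries and plots used Python 3.11.15.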

Additional observations from a re-analysis of the deposited data

How the results depend on the processing

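At 1 μM the 18 decreases numbered 16 to 18 under DESeq2, other scaling and filters, the GC and length corrections and a fit on all samples, 20 at unadjusted p, 6 with the 1.5-fold cutoff and 16 to 17 with single samples left out. The 3 increases became 0 with the 1.5-fold cutoff and 1 to 2 with single samples left out, with 1 when the first or the third sample of either group was left out. Apart from the 1.5-fold cutoff, under which 6 of the 21 calls at 1 μM remained, CLK3, TRA2A, SON and SRSF3 were lost in at least 1 setting. The highest adjusted p of these (edgeR or DESeq2, Benjamini-Hochberg) was 0.197 for CLK3. LUC7L2, which did not pass, ranged from -0.13 to 0.0022 with single samples left out, and turned positive (adjusted p = 0.991) without the third 1 μM sample. At 0.3 μM, 0 members became 7 at unadjusted p, and the median of -0.08 became -0.0595 with the GC correction and -0.128 to -0.0497 with single samples left out, -0.128 without the first DMSO sample, -0.0563 without the second DMSO sample and -0.0497 without the third sample at 0.3 μM. Between doses, 14 lower members became 2 with the 1.5-fold cutoff and 10 to 15 with single samples left out. The 3 higher became 5 without the filter, 5 at unadjusted p, 1 with the 1.5-fold cutoff and 1 to 4 with single samples left out, with 1 without the first sample at 1 μM. For the other splicing lists, 25 lower became 14 to 26 with single samples left out (14 without the third and 15 without the second sample at 1 μM), and 7 higher became 13 with the GC correction, 11 without the filter, 14 at unadjusted p and 2 to 11 with single samples left out (2 without the second 1 μM or the third DMSO sample, 3 without the third 1 μM sample, 11 without the second DMSO sample). The causes of these differences were not tested.

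The deviations of samples with the same replicate number had r from -0.02 to 0.08 over 9 pairs, 0 of them over 0.1. Over 18 pairs of samples with different numbers, r was from -0.07 to 0.04. With 3 samples per group, values this small cannot decide whether the numbers pair the samples. With the replicate block, 16 members were lower and 1 higher at 1 μM, 15 lower and 5 higher between doses, and 3 list genes were higher.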
